A study of Mus musculus with 167 samples.

Results

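The miR-143 and miR-145a cluster was followed through lung, heart, brain and blood of mice whose thorax had been irradiated. Its members were the 4 mature miRNAs cut from 2 neighbouring hairpins, namely mmu-miR-143-3p, mmu-miR-143-5p, mmu-miR-145a-5p and mmu-miR-145a-3p. They were taken by name as 4 of the 1915 miRNAs counted in each of 5 tissues, by a rule that names them and sets no threshold on their values. The related miR-145b had 1 read in all libraries together and was left aside.

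The libraries came from 35 mice of the strains C3Hf/Sed/Kam (C3H) and C57Bl/6 (C57). They had received a single whole thorax lung irradiation (WTLI) or a sham irradiation, and had survived to month 4 in C3H or month 6 in C57. Lung, heart, brain and the red blood cell (RBC) fraction each gave 7 irradiated and 8 sham C3H libraries and 5 irradiated and 15 sham C57 libraries. The white blood cell (WBC) fraction gave 6 and 5 C3H libraries and 5 and 11 C57 libraries, so that there were 167 in all. All C3H mice were female, while the C57 mice were 4 males and 1 female after irradiation and 8 males and 7 females after sham treatment. Strain and month of collection cannot be told apart, nor can tissue and counting table. Sample titles carry a letter, A or B, whose meaning is not stated, and several results were also computed within each letter. As only survivors were sampled, the animals that died earlier are not represented.

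Both miRNAs are best known from smooth muscle, where they are abundant in the contractile cells of vessel walls and airways and decline when those cells turn to a proliferating, synthetic state. miR-145 represses the transcription factor KLF4, a brake on the contractile programme, and miR-143 represses the transcription factor ELK1 among others. Both hairpins are generally made from a single long transcript. Each hairpin then gives a guide strand, which is loaded into Argonaute and kept, and a passenger strand, most of which is degraded. The guide strands are miR-143-3p and miR-145a-5p and the passengers miR-143-5p and miR-145a-3p. Pericytes and fibroblasts also express the pair, so a whole-organ level is not that of vessel muscle alone.

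On GRCm38, the GENCODE M21 annotation placed Mir145a on the minus strand of chromosome 18 from 61647825 to 61647894 and Mir143 from 61649196 to 61649258. The hairpins spanned 70 and 63 bases, and 1301 bases lay between them. Both fell within the RefSeq span of the long noncoding RNA gene Carmn (61645878 to 61665538), the host gene of the cluster. The GENCODE model of Carmn ended 366 bases short of Mir143.

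Total miRNA reads ranged from 1794995 to 7865102 per library, with medians by tissue between 2966605 in brain and 4172573 in WBC. Heart and brain libraries held the markers of their labels. Summed cardiac miRNAs reached 50690 to 298863 RPM (reads per 1000000 miRNA reads) in heart and at most 8560 elsewhere, and neuronal miRNAs 104654 to 153724 RPM in brain and at most 5782 elsewhere. Epithelial miRNAs summed to 8381 to 37452 RPM in lung, but also to 97.6 to 41037 RPM in brain (median 973 RPM), so that some brain libraries reached the level of lung in that list. The blood fractions were not separated in this way. Erythrocyte miRNAs summed to 17913 to 106907 RPM in WBC and 28566 to 106323 RPM in RBC, and leukocyte miRNAs to 10623 to 33447 and 8203 to 45244 RPM. 4 libraries stood apart in the markers that bear on a result here. Lung C57 sham replicates 1 and 4, both male and of letter A, held 202363 and 236828 RPM of miR-21a-5p, a miRNA raised in injured lung, against 24169 to 54069 RPM in the other 13 shams and 80219 to 159132 RPM in the 5 irradiated lungs. Heart C3H irradiated replicate 3 held 50690 RPM of cardiac miRNAs against at least 152407 RPM in the other 34 hearts. Heart C3H sham replicate 3, of letter A, held 10253 RPM of leukocyte miRNAs against at most 3355 RPM in the other 34. Calls of the cluster that changed without these libraries are given with and without them.

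Lung and heart held by far the most of the cluster. In sham libraries, miR-143-3p averaged 53007 ± 8074 RPM in lung and 44524 ± 10658 RPM in heart (SD, n = 23 each). It averaged 8027 ± 1201 RPM in brain (SD, n = 23), 104 ± 52.2 RPM in WBC (SD, n = 16) and 20.1 ± 23.1 RPM in RBC (SD, n = 23). A single mature miRNA thus took a mean of 5.23% of all miRNA reads in lung (range 3.37% to 7.43% over 35 libraries) and 4.53% in heart (3.14% to 7.39%), against 0.802% in brain. By abundance its median rank was 4 in heart and 5 in lung, and it dropped to 22 in brain, 96 in WBC and 135 in RBC.

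The other guide strand, miR-145a-5p, was likewise highest in heart and lung, lower in brain and lowest in blood, at a lower level throughout. Its sham means were 1410 ± 356 RPM in lung, 1901 ± 921 RPM in heart and 157 ± 46.1 RPM in brain (SD, n = 23 each), and 1.77 ± 2.26 RPM in WBC (SD, n = 16) and 0.801 ± 1.34 RPM in RBC (SD, n = 23). The spread in heart exceeded that in lung and is taken up below by sex and letter. Of the passengers, miR-143-5p averaged 330 ± 65.7 RPM in lung and 356 ± 190 RPM in heart, 37.7 ± 12.3 RPM in brain, 1.03 ± 0.674 RPM in WBC and 0.282 ± 0.294 RPM in RBC. miR-145a-3p was rare throughout, at 2.97 ± 1.09 RPM in lung, 1.51 ± 0.899 RPM in heart and 0.635 ± 0.522 RPM in brain. It had no read in any blood library, and over the sham libraries a count of 0 allowed up to 0.0468 RPM in WBC and 0.0368 RPM in RBC. Intervals and limits of this kind cover counting error only.

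**Figure D1:**
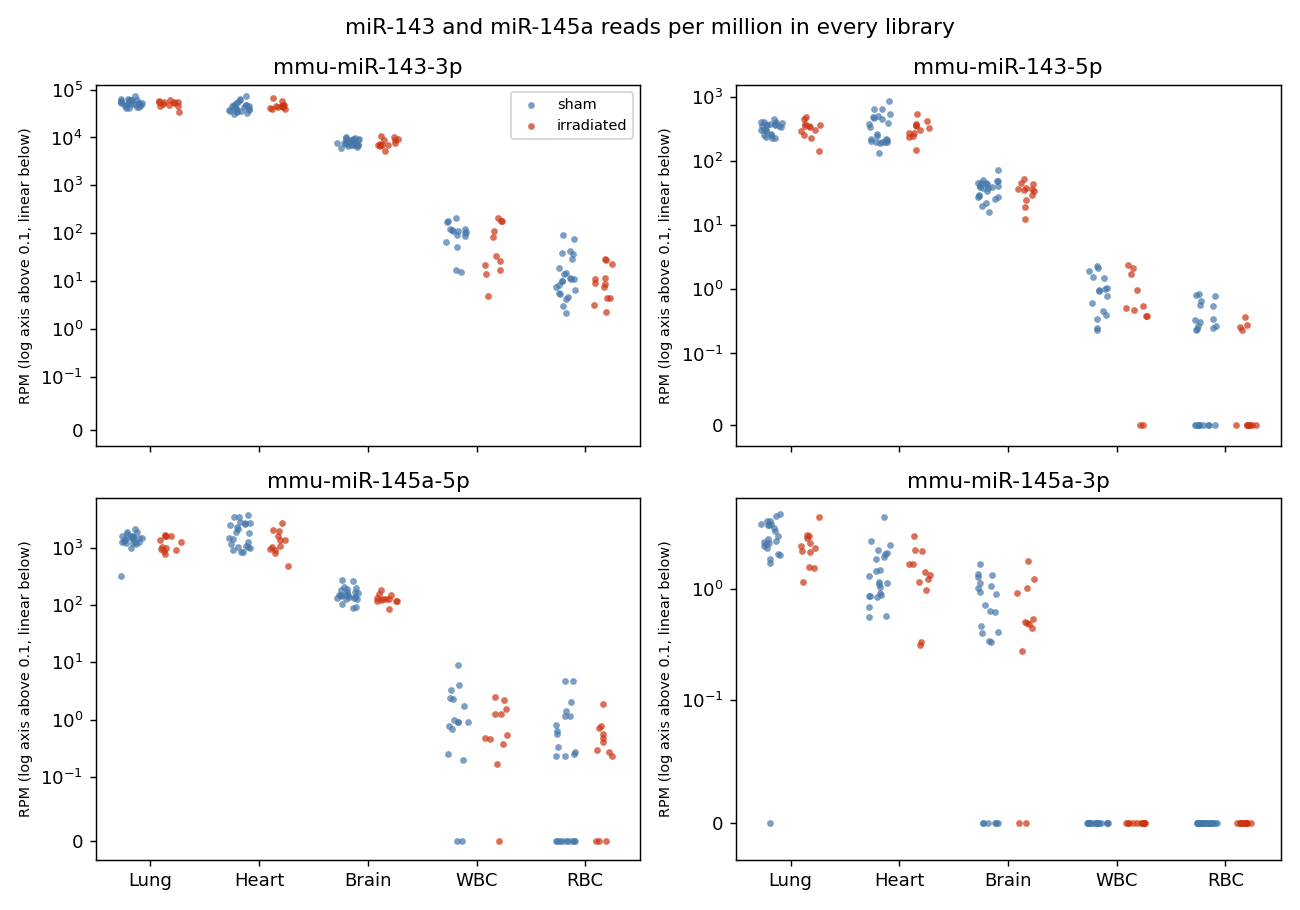
RPM (vertical axis, logarithmic above 0.1 RPM and linear below) of the 4 members in every library by tissue (horizontal axis), with sham libraries in blue and irradiated ones in red. In lung and heart miR-143-3p lies between 31409 and 74277 RPM, brain lies lower than both for miR-143-3p while overlapping them for miR-145a-3p, and miR-145a-3p has no read in any WBC or RBC library.

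All 4 members were higher in lung than in brain and in heart than in brain. In the limma-voom fit of sham libraries, scaled by library size, log2 differences of lung over brain were 2.73 ± 0.13 for miR-143-3p, 3.19 ± 0.22 for miR-143-5p and 3.26 ± 0.27 for miR-145a-5p (± SE), and miR-145a-3p was also higher in lung. The largest of the 4 adjusted p-values was 3.24e-15. Heart over brain gave 2.54, 3.18, 3.56 and 1.34 in that order, with a largest adjusted p of 4.91e-07. Most miRNAs separate these organs, and 87.2% of 524 tested passed between lung and brain and 88.4% between heart and brain.

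Between lung and heart the order was not settled. miR-143-3p differed by 0.19 ± 0.12 (adjusted p = 0.149), miR-143-5p by 0.01 ± 0.19 (adjusted p = 0.973) and miR-145a-5p by −0.30 ± 0.24 (adjusted p = 0.263, limma, lung minus heart), where 67% of miRNAs passed. The 95% interval for miR-143-3p ran from −0.05 to 0.43. miR-145a-3p alone passed, 0.91 ± 0.26 higher in lung (adjusted p = 0.00132). With trimmed-mean scaling (TMM), miR-145a-5p and miR-143-5p came out lower in lung, by −0.71 (adjusted p = 0.0042) and −0.40 (adjusted p = 0.0354). miR-145a-3p then did not pass (0.51, adjusted p = 0.0644). This scaling moved the median of all miRNAs from 0.26 to −0.14.

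Brain exceeded WBC for the 3 members with reads in blood, by 6.77 ± 0.22 for miR-143-3p, 7.08 ± 0.42 for miR-145a-5p and 5.33 ± 0.30 for miR-143-5p, where 90.3% of miRNAs passed. miR-143-3p was 2.50 ± 0.27 higher in WBC than in RBC (adjusted p = 2.62e-14, limma), against 41.2% of miRNAs passing. The fitted differences of the other members in blood rest on a few reads per library and depend on the prior count.

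In lung, the change of miR-143-3p after irradiation did not pass in either strain. In C3H lung it was 50294 ± 8968 RPM after irradiation (SD, n = 7) and 47926 ± 3725 RPM in shams (SD, n = 8). The irradiated libraries ran from 33686 through a median of 51348 to 60061 RPM and the shams from 42165 through 48967 to 52322 RPM, so that the groups overlapped, with 1 irradiated library below all shams and 3 above all. The log2 change was −0.19 ± 0.15 (adjusted p = 0.362, limma after quantile normalisation). In C57 lung the means were 52124 ± 4592 RPM (SD, n = 5) and 55718 ± 8537 RPM (SD, n = 15). The 5 irradiated libraries held 44740, 50731, 54152, 54790 and 56207 RPM, and all lay below the sham median of 56938 RPM. This change, −0.37 ± 0.15, did not pass (adjusted p = 0.0838, limma). It passed without lung C57 sham replicate 4 (−0.38, adjusted p = 0.04996) and without both shams high in miR-21a-5p (−0.39, adjusted p = 0.0285).

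Quantile normalisation gives every library the same set of values, so for a miRNA near the top of the ranking the change is a difference in rank by construction. On the RPM scale, the C3H lung means stood in the ratio 1.05, opposite in sign to the normalised change. In C57 lung the RPM ratio was 0.936 and the log2 RPM change −0.08 (exact permutation p = 0.436, adjusted p = 0.698 over 24 tests), smaller than the normalised change of −0.37.

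In the main fit of lung, the change of miR-145a-5p after irradiation passed in C57 but not in C3H, and in both strains the call depended on the processing. In C57, irradiated libraries held 788, 860, 923, 970 and 1232 RPM, while the 15 shams ran from 325 through a median of 1258 to 1759 RPM. All 5 lay below the sham median. No irradiated library lay below all 15 shams. The sham minimum was lung C57 sham replicate 4, with 658 reads among 2024219. With this lowest sham set aside, 4 of the 5 irradiated libraries lay below all of the other 14 shams, a gap that its removal opens. miR-145a-5p fell by 0.53 ± 0.19 on the log2 scale (adjusted p = 0.0475, limma), where 16.6% of 350 miRNAs passed. The call was lost with TMM scaling (−0.49, adjusted p = 0.0556) and with library size alone (−0.36, adjusted p = 0.237). It was also lost without irradiated replicate 1, 3, 4 or 5, and in an exact permutation test of log2 RPM (−0.36, adjusted p = 0.640). Without both shams high in miR-21a-5p the fall was −0.69 ± 0.12 (adjusted p = 2.8e-05). On the normalised log2 scale these are also the C57 shams lowest in miR-145a-5p (9.81 and 8.67), so leaving them out enlarges the fall by construction. The fall was −0.35 (adjusted p = 0.634) in males alone and −0.48 (adjusted p = 0.0798) with sex as a covariate. Within letter A it was −0.22 (adjusted p = 0.807) and within letter B −0.78 (adjusted p = 0.000837).

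In C3H lung, miR-145a-5p ran from 946 through 1562 to 1658 RPM after irradiation and from 1432 through 1552 to 2083 RPM in shams. 3 of the 7 irradiated libraries lay below all shams and the others fell among them. The change of −0.46 ± 0.19 sat just above the threshold (adjusted p = 0.0513, limma), where 33.4% of miRNAs passed, and it passed with edgeR (−0.57, adjusted p = 0.0102) and with TMM scaling (−0.57, adjusted p = 0.0147). Within letter B it passed (−0.50, adjusted p = 0.015) and within letter A it did not (−0.43, adjusted p = 0.422). Scaled by library size alone, which raises the median change of all miRNAs in this contrast from −0.08 to 0.27, it was −0.28 (adjusted p = 0.32). The strains did not differ detectably in this change: the interaction was 0.07 ± 0.27 (adjusted p = 0.926; 95% interval −0.47 to 0.60), and 0.286% of miRNAs passed that test.

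Of the passengers in lung, miR-145a-3p gave less precise values than the other members. miR-145a-3p had 4 to 15 reads in C3H irradiated libraries and 8 to 18 in shams, for 2.59 ± 1.00 and 3.47 ± 0.786 RPM. It fell by 0.91 ± 0.32 (adjusted p = 0.029, limma) in C3H, by −1.51 (adjusted p = 0.0031) within letter B and −0.29 (adjusted p = 0.761) within letter A. TMM scaling ended the call (−0.75, adjusted p = 0.061), as did library size alone (−0.46, adjusted p = 0.313), a filter of 1 count (−0.87, adjusted p = 0.181), leaving out irradiated replicate 4 (−0.70, adjusted p = 0.0821) or 5 (−0.83, adjusted p = 0.0558), and an exact permutation test of log2 RPM (−0.46, adjusted p = 0.567). In C57 it changed by −0.55 ± 0.34 (adjusted p = 0.24). miR-143-5p was 329 ± 119 against 342 ± 39.3 RPM in C3H and 326 ± 54.7 against 325 ± 76.8 RPM in C57. Its changes were −0.40 ± 0.19 (adjusted p = 0.103) and −0.14 ± 0.19 (adjusted p = 0.616). The former passed with DESeq2 (−0.39, adjusted p = 0.0448) and with TMM (−0.43, adjusted p = 0.0407). In bulk tissue, fewer cells of a type and less RNA per cell cannot be told apart.

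**Figure D2:**
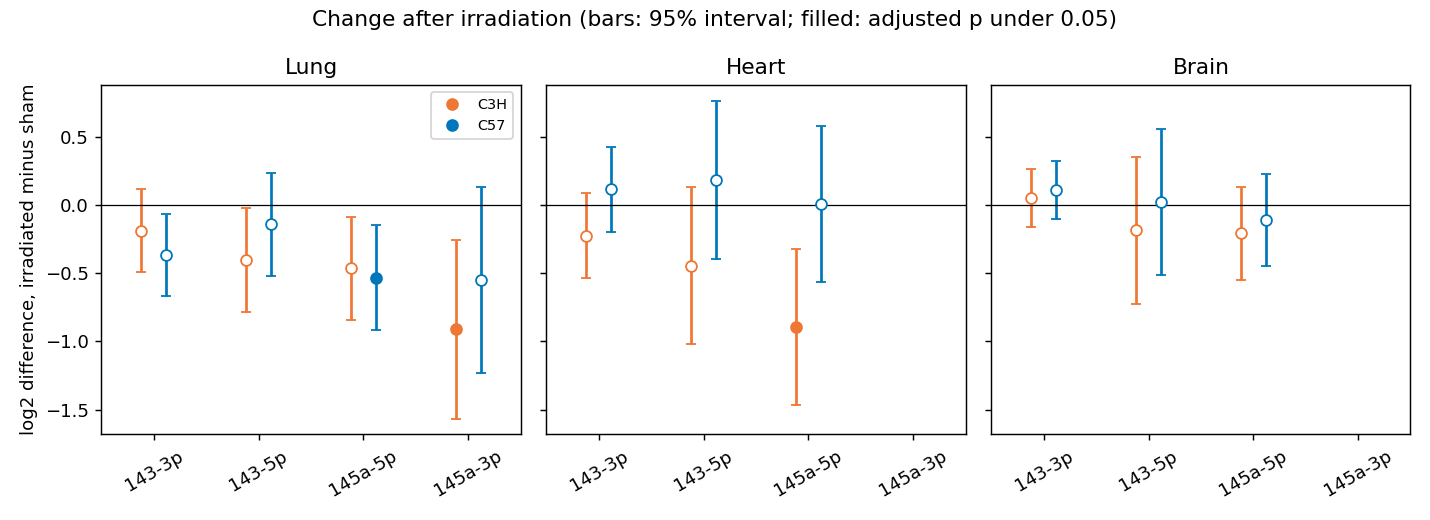
Log2 difference between irradiated and sham libraries (vertical axis) for each member in lung, heart and brain from the limma fit, with C3H in orange and C57 in blue, 95% intervals as bars, and filled points for adjusted p under 0.05. Of the 20 values fitted, 3 are filled, namely miR-145a-3p in C3H lung and miR-145a-5p in C57 lung and C3H heart, and all 3 lie below 0.

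In C3H heart, miR-145a-5p averaged 1130 ± 699 RPM after irradiation (SD, n = 7) and 2201 ± 1231 RPM in shams (SD, n = 8). Irradiated libraries ran from 483 through 952 to 2652 RPM and shams from 915 through 1936 to 3744 RPM. 6 of the 7 irradiated libraries lay below the sham median and 3 below all shams, and irradiated replicate 1 lay among the highest shams. miR-145a-5p fell by 0.89 ± 0.28 (adjusted p = 0.025, limma), where 16.7% of 312 miRNAs passed. Without irradiated replicate 3, the library poor in cardiac miRNAs, the change was −0.74 (adjusted p = 0.0875), and without sham replicate 3, the library high in leukocyte miRNAs, −0.83 (adjusted p = 0.0531). Neither passed, so that the call rests on each of these libraries. An exact two-sided permutation test of log2 RPM gave p = 0.0455, which became 0.567 after adjustment over 24 such tests.

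The C3H shams in heart fell into separate clusters by letter. The 4 letter A shams held 2636 to 3744 RPM of miR-145a-5p and the 4 letter B shams 915 to 1236 RPM. Irradiated libraries of letter A held 483, 1079 and 2652 RPM and those of letter B 816 to 1037 RPM. The change was accordingly −1.36 (adjusted p = 0.0312) within letter A and −0.38 (adjusted p = 0.656) within letter B, both by limma. miR-143-3p behaved in a like way, with 51630 to 73902 RPM in letter A shams against 36159 to 47312 RPM in letter B shams. Over both letters it changed by −0.22 ± 0.15 (adjusted p = 0.294), and within letter A by −0.72 (adjusted p = 0.0458). The library poor in cardiac miRNAs is 1 of the 3 irradiated letter A hearts, and without it neither change passed within letter A (miR-145a-5p −0.82, adjusted p = 0.214, and miR-143-3p −0.43, adjusted p = 0.28). Nor did they without the sham high in leukocyte miRNAs, also of letter A (−1.39, adjusted p = 0.056, and −0.78, adjusted p = 0.0689). Among all miRNAs, 52 of 329 passed within letter A and 18 of 304 within letter B. Letter A and B shams did not overlap in miR-143-5p either (388 to 856 against 216 to 248 RPM), and its change was −0.44 ± 0.28 (adjusted p = 0.267).

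In C57 heart no member passed. miR-145a-5p held 1368, 1381, 1598, 1943 and 1998 RPM after irradiation and 850 through 1811 to 2813 RPM in shams, a change of 0.01 ± 0.28 (adjusted p = 0.995; 95% interval −0.56 to 0.58). Among all miRNAs 3.53% passed. Since sham males and females differed here, the males alone were also compared, and miR-145a-5p then gave −0.33 (adjusted p = 0.258). miR-143-3p changed by 0.12 ± 0.15 (adjusted p = 0.776) and miR-143-5p by 0.19 ± 0.29 (adjusted p = 0.80). miR-145a-3p was too rare in heart and brain to be tested for irradiation.

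The difference between the strains in heart was tested as an interaction and did not pass for miR-145a-5p (−0.90 ± 0.40, p = 0.0302, adjusted p = 0.28, limma). With limma 0% of miRNAs passed in that test, though 51 had an unadjusted p under 0.05, and edgeR called 0 and DESeq2 4. The change in lung was also set against that in heart. For miR-145a-5p the lung change exceeded the heart change by 0.16 ± 0.32 in C3H (adjusted p = 0.817) and by −0.57 ± 0.32 in C57 (adjusted p = 0.399), and for miR-143-3p by −0.05 ± 0.29 (adjusted p = 0.944) and −0.73 ± 0.29 (adjusted p = 0.186). The passengers gave 0.06 ± 0.35 and −0.33 ± 0.35 for miR-143-5p, and −1.09 ± 0.51 (p = 0.036, adjusted p = 0.221) and −0.12 ± 0.56 for miR-145a-3p, which rests on few reads in heart. Without the heart poor in cardiac miRNAs the C3H differences of the guide strands were 0.02 and −0.17, without the sham heart high in leukocyte miRNAs 0.10 and −0.05, and without both lung shams high in miR-21a-5p the C57 differences were −0.73 (adjusted p = 0.14) and −0.83 (adjusted p = 0.0591), in the same order of miRNAs. None of these passed, while with TMM scaling the C3H difference of miR-143-3p did (−0.45, adjusted p = 0.0382). Of 374 miRNAs, 6.68% passed in C3H and 5.61% in C57 in the main fit.

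**Figure D3:**
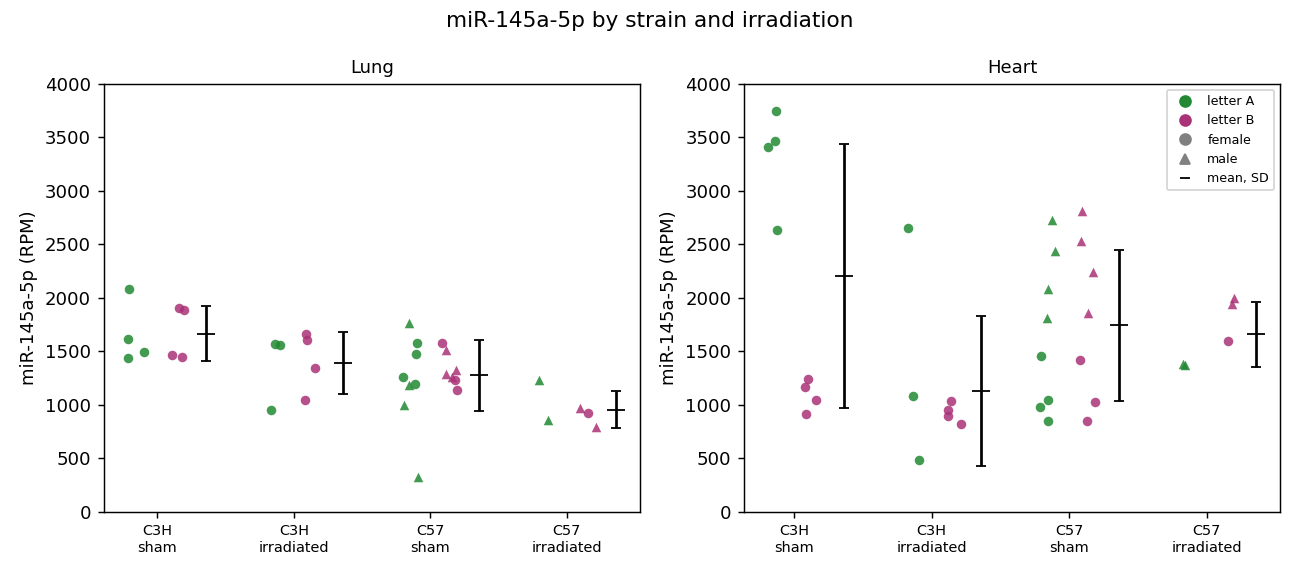
miR-145a-5p in RPM (vertical axis) in each lung and heart library by strain and treatment (horizontal axis), with letter A in green, letter B in purple, females as circles and males as triangles, and the group mean ± SD in black. In heart, letter A and letter B C3H shams do not overlap (2636 to 3744 and 915 to 1236 RPM), nor do sham C57 males and females (1811 to 2813 and 850 to 1460 RPM).

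In brain, which lies outside the thorax, no member passed. miR-143-3p was 7141 ± 1060 against 7181 ± 659 RPM in C3H (irradiated against sham) and 9211 ± 1398 against 8479 ± 1192 RPM in C57. miR-145a-5p ran from 85.8 to 134 RPM in irradiated C3H and from 87.6 to 276 RPM in shams, and was 146 ± 26.3 against 164 ± 37.2 RPM in C57 (irradiated against sham). miR-143-5p was 30.7 ± 9.17 against 37.8 ± 14.7 RPM in C3H and 38.0 ± 13.2 against 37.6 ± 11.4 RPM in C57. Their log2 changes lay between −0.21 and 0.11, with adjusted p of at least 0.644 in limma. In brain 0% of 433 miRNAs passed in C3H, in C57 and in the interaction, with 9, 53 and 21 at an unadjusted p under 0.05. edgeR called 0, 3 and 0 and DESeq2 0, 9 and 0.

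In blood, reads of the cluster were few. In C3H WBC, miR-143-3p held 32.8, 17.1, 26.9, 22.1, 14.2 and 4.88 RPM after irradiation and 88.1, 51.3, 16.9, 15.5 and 101 RPM in shams. The irradiated libraries overlapped the 2 lowest shams. In C57 WBC the irradiated libraries held 83.9, 181, 113, 206 and 179 RPM, within or just above the sham range of 65.2 to 204 RPM around a median of 116 RPM. The changes of −1.02 ± 0.35 (p = 0.0075, adjusted p = 0.311) and 0.48 ± 0.31 (adjusted p = 0.862) did not pass in limma, nor did the interaction (−1.49 ± 0.47, p = 0.0037, adjusted p = 0.611). In RBC, miR-143-3p averaged 11.3 against 23.6 RPM in C3H and 12.5 against 18.2 RPM in C57, and its changes of −0.60 ± 0.56 and −0.13 ± 0.54 did not pass (adjusted p = 0.548 and 0.992).

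Neither blood fraction had a miRNA passing in limma for irradiation or its interaction, which is 0% of 291 in WBC and of 229 in RBC. In WBC, 20, 12 and 5 miRNAs had an unadjusted p under 0.05 in C3H, C57 and the interaction, and neither edgeR nor DESeq2 called any. In RBC there were 43, 14 and 12, and after adjustment edgeR called 12, 1 and 0 and DESeq2 22, 1 and 1.

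In the hearts of sham C57 mice, miR-145a-5p, miR-143-5p and miR-143-3p were lower in females than in males in the main fit. miR-145a-5p was 2312 ± 378 RPM in the 8 males and 1090 ± 250 RPM in the 7 females, and no female reached the lowest male. Females were lower by −0.91 ± 0.24 (adjusted p = 0.0053, limma), where 34.9% of 367 miRNAs passed. miR-143-5p was 429 ± 92.6 RPM in males and 187 ± 23.7 RPM in females (−0.94 ± 0.24, adjusted p = 0.0046), again without overlap. miR-143-3p was 45344 ± 4772 RPM in males and 35086 ± 2739 RPM in females (−0.42 ± 0.13, adjusted p = 0.0175). This last difference turned in sign with TMM scaling (0.010, adjusted p = 0.957) and was −0.01 (adjusted p = 0.952) with edgeR. Within letter B the sex difference passed for all 3, at −1.16 (adjusted p = 0.00017) for miR-145a-5p, and within letter A for none, at −0.66 (adjusted p = 0.23). Over all miRNAs, 170 of 343 passed within letter B and 2 of 329 within letter A, so the split is also that of miRNAs in general. miR-145a-3p was higher in females within letter B (1.56, adjusted p = 0.0151) and did not pass over both letters (0.77 ± 0.41, adjusted p = 0.126). For miR-145a-5p the RPM means were alike in both letters, at 1085 and 2263 RPM in letter A females and males and 1096 and 2360 RPM in letter B. For miR-143-5p the log2 RPM difference was −0.87 in letter A and −1.50 in letter B, and for miR-145a-3p it was −0.48 and 0.86. Beside the cluster, 3 of 6 fibroblast, 2 of 4 cardiac and 1 of 2 endothelial miRNAs were lower in female hearts, as were 2 of 4 erythrocyte and 1 of 5 leukocyte miRNAs, while another leukocyte miRNA and 1 of 5 ciliated miRNAs were higher. Of 10 phenotype miRNAs 1 was higher and 1 lower. Their part in the difference was not tested.

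In brain, miR-143-5p was lower in females (30.5 ± 13.5 against 43.7 ± 3.28 RPM, −0.67 ± 0.22, adjusted p = 0.0255, limma; 21.3% of miRNAs passed), a call lost with TMM (−0.48, adjusted p = 0.0823), with edgeR (−0.38, adjusted p = 0.186) and within letter A (−0.18, adjusted p = 0.815). miR-143-3p was lower in female brains with library size alone (−0.28, adjusted p = 0.0298) and within letter B (−0.37, adjusted p = 0.0237), and did not pass otherwise. Within letter B 275 of 482 miRNAs passed in brain, and within letter A 0 of 436, with 70 at an unadjusted p under 0.05 in limma. In the same contrast all 5 epithelial miRNAs were higher in female brains (median 4.19), while 3 of 5 ciliated, 2 of 3 neuronal, 2 of 3 cardiac and 4 of 10 smooth muscle phenotype miRNAs were lower and 1 of 4 erythrocyte miRNAs was higher. Their part in the difference was not tested. In lung no member passed over both letters, with differences between −0.19 and 0.33, where 6.05% of miRNAs passed. Within letter B of lung, females were lower in miR-143-3p (−0.51, adjusted p = 0.0242) and miR-143-5p (−0.83, adjusted p = 0.0018), where 124 of 386 miRNAs passed, against 2 of 356 within letter A. Without both shams high in miR-21a-5p, the lung differences over both letters ran from −0.32 to 0.01 and none passed, while 1 of all 395 miRNAs did. No member passed in WBC, where 11.1% of miRNAs did. In RBC, miR-143-3p averaged 29.1 ± 29.9 RPM in females (6.54 to 90.6 RPM) and 8.62 ± 4.83 RPM in males (3.04 to 18.6 RPM). This difference, 1.24 ± 0.51, did not pass in limma (adjusted p = 0.0913), where 14.4% of miRNAs did, and passed with edgeR (1.42, adjusted p = 0.0447).

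Strains were compared between sham females. In heart, C3H exceeded C57 in miR-143-3p by 0.36 ± 0.13 (adjusted p = 0.0432), in miR-143-5p by 0.76 ± 0.24 (adjusted p = 0.0199) and in miR-145a-5p by 0.64 ± 0.24 (adjusted p = 0.0394, limma), where 31.6% of miRNAs passed. With TMM scaling, miR-143-3p (0.18, adjusted p = 0.261) and miR-145a-5p (0.48, adjusted p = 0.113) did not pass, nor with edgeR (0.19, adjusted p = 0.216, and 0.57, adjusted p = 0.0677). Without the sham high in leukocyte miRNAs, miR-143-3p (0.34, adjusted p = 0.0756) and miR-145a-5p (0.58, adjusted p = 0.0844) did not pass either, while miR-143-5p did (0.72, adjusted p = 0.0464). The 3 differences passed within letter A, where 140 of 329 miRNAs did, and none within letter B, where 34 of 343 did, and the difference between letters was not tested. For miR-145a-5p, letter A C3H hearts averaged 3312 RPM and C57 females 1085 RPM (1.16, adjusted p = 0.0091), while letter B averages were 1091 and 1096 RPM (0.17, adjusted p = 0.648). No member passed in lung, where miR-143-3p was lower in C3H by −0.38 ± 0.15 (adjusted p = 0.0998), nor in brain, WBC or RBC. The shares of all miRNAs passing were 14.4%, 15%, 22.3% and 18.3% in that order of tissues. Among the lists, 2 of 4 cardiac, 2 of 6 fibroblast and 1 of 5 epithelial miRNAs were higher in C3H heart, 2 of 4 erythrocyte miRNAs were higher and 1 lower, 1 of 5 leukocyte miRNAs was higher and 2 lower, and 1 of 10 smooth muscle phenotype miRNAs was lower. In C3H lung all 4 cardiac and 5 of 10 phenotype miRNAs were higher and all 5 ciliated ones lower. Within letter B, miR-143-5p was higher in C3H in brain (1.18, adjusted p = 4.2e-05) and lung (0.54, adjusted p = 0.0379), where 312 of 482 and 55 of 386 miRNAs passed.

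The ratio of the 2 guide strands is free of library size and of any scaling. In sham libraries the geometric mean of miR-143-3p over miR-145a-5p was 38.9 in lung, 25.6 in heart and 52.4 in brain. Within the 23 animals, lung exceeded heart by 0.60 ± 0.79 on the log2 scale (SD; 19 of 23 animals), lung minus brain was −0.43 (lung higher in 4 of 23) and heart minus brain −1.03 (heart higher in 2 of 23). Adjusted p-values were 0.00114, 0.00217 and 6e-05 in two-sided sign-flip permutation tests over 9 comparisons. Guide over passenger counts for miR-143 stood at 139 in heart, 162 in lung and 221 in brain, and for miR-145a at 1140, 481 and 246 in that order. All 6 of these tissue differences passed as well, with the largest adjusted p of 0.0254 for miR-143 between lung and heart. The miR-145a strand ratio in brain rests on 44 reads of miR-145a-3p over 23 libraries.

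After irradiation the ratio of miR-143-3p to miR-145a-5p was higher in C3H heart, at 48.0 against 26.8 in shams. 6 of the 7 irradiated libraries lay above every sham. The log2 difference of 0.84 had an exact two-sided permutation p of 0.0129 and an adjusted p of 0.129 over 18 ratio tests. It was 1.24 within letter A and 0.42 within letter B, and 0.70 (adjusted p = 0.27, exact permutation test) without the library poor in cardiac miRNAs and 0.77 (adjusted p = 0.236, exact permutation test) without the sham high in leukocyte miRNAs. In C3H lung the ratio was 36.4 against 29.0 (0.33, exact p = 0.0143, adjusted p = 0.129), with 3 of 7 libraries above every sham, and the difference was 0.16 in letter A and 0.48 in letter B. In C57 lung it was 55.1 against 45.6 (0.27, exact p = 0.271, adjusted p = 0.61). All 5 irradiated libraries lay above the sham median, and without lung C57 sham replicate 4, whose ratio was 144, the difference was 0.39 (adjusted p = 0.0743 in the exact permutation test). It was −0.05 in letter A and 0.54 in letter B. C57 heart gave 26.8 against 25.0 (0.10), C3H brain 60.2 against 52.7 (0.19) and C57 brain 63.3 against 52.3 (0.28, exact p = 0.065, adjusted p = 0.39). In letters A and B these were 0.45 and −0.14 in C57 heart, −0.13 and 0.50 in C3H brain, and 0.36 and 0.21 in C57 brain. None of the 18 ratio tests passed after adjustment, those of guide over passenger included.

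**Figure D4:**
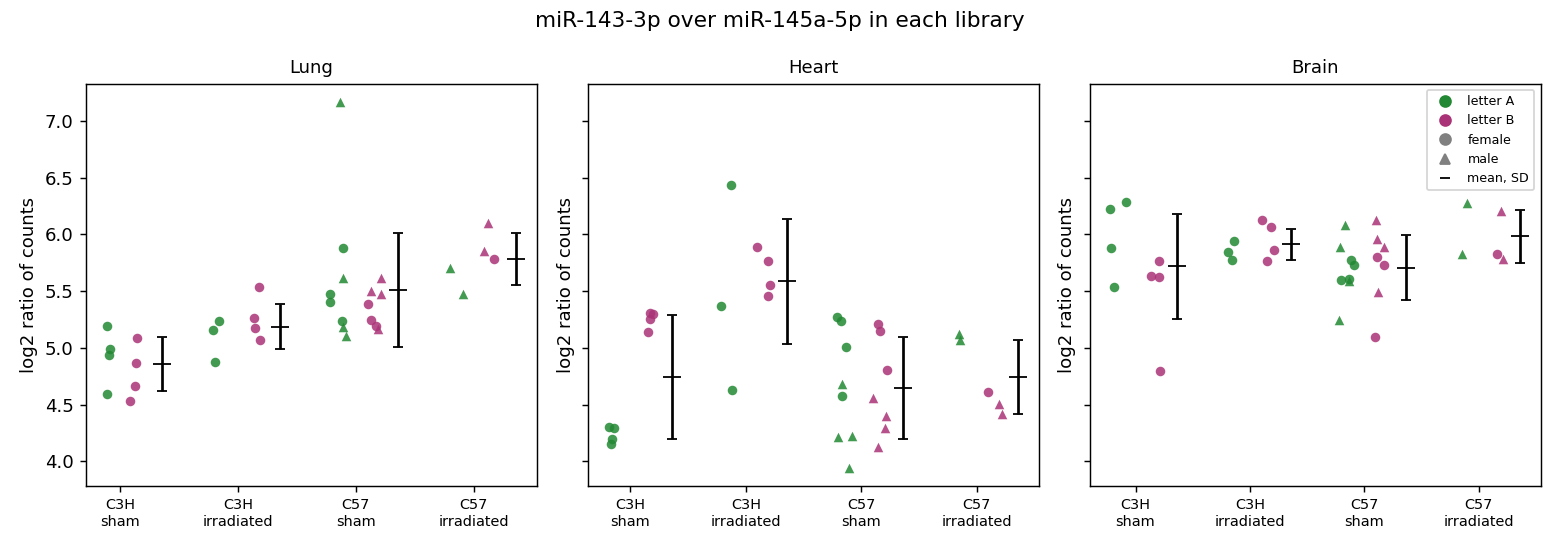
Log2 ratio of miR-143-3p to miR-145a-5p counts (vertical axis) in each lung, heart and brain library by strain and treatment (horizontal axis), with letters by colour, sexes by symbol and the group mean ± SD in black. In C3H heart 6 of 7 irradiated libraries lie above all 8 shams, and in the C57 lung shams 1 library, with a ratio of 144, stands far above the rest.

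In lung shams the ratio also separated the strains among females, since the 8 C3H libraries held 23.2 to 36.5 and the 7 C57 females 36.6 to 59.0. C57 males ran from 34.5 to 144. In heart the C57 males (15.4 to 25.7) lay mostly below the C57 females (23.9 to 38.7), and C3H females spanned both (17.8 to 39.5). No test was made of these sham differences.

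Across libraries, the 2 guide strands varied together in part. After subtraction of group means, log2 RPM of miR-143-3p and miR-145a-5p had r = 0.47 in lung (n = 35, permutation adjusted p = 0.0132 over 5 tissues; rho = 0.57, adjusted p = 0.000783). Without the 2 libraries farthest in miR-143-3p, r was 0.45, and within letters A and B it was 0.50 and 0.38. Without lung C57 sham replicate 4, r was 0.53 (n = 34, permutation adjusted p = 0.00394), and without replicates 1 and 4 it was also 0.53 (n = 33, permutation adjusted p = 0.00564). In brain r was 0.48 (n = 35, permutation adjusted p = 0.00233; rho = 0.55, adjusted p = 0.00105), 0.52 without the 2 farthest, and 0.64 and 0.32 within the letters. With TMM factors r was 0.38 in lung (adjusted p = 0.122) and 0.16 in brain (adjusted p = 0.309), neither of which passed. The lung coefficient also did not pass in sham libraries alone (0.41, permutation adjusted p = 0.103). Nor did it with the means of sex and letter also subtracted (0.45, permutation adjusted p = 0.0567).

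Hearts fell into clusters by sex and letter, so no pooled coefficient is given for them. With the means of sex and letter also subtracted and the single irradiated C57 female dropped as alone in its class, r in heart was 0.68 (n = 34, permutation adjusted p = 0.00142; rho = 0.66), 0.59 without the 2 farthest, 0.66 without the library poor in cardiac miRNAs (n = 33, permutation adjusted p = 0.00435) and 0.68 without the sham high in leukocyte miRNAs (n = 33, permutation adjusted p = 0.0019). Within sham C57 males it was 0.33 (n = 8, exact permutation p = 0.448; rho = 0.19) and −0.47 without the 2 farthest, and within females 0.65 (n = 7, exact permutation p = 0.121; rho = 0.57) and 0.18 without them. In WBC and RBC the median library had 4 and 1 reads of miR-145a-5p, too few for a relation to be read.

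**Figure D5:**
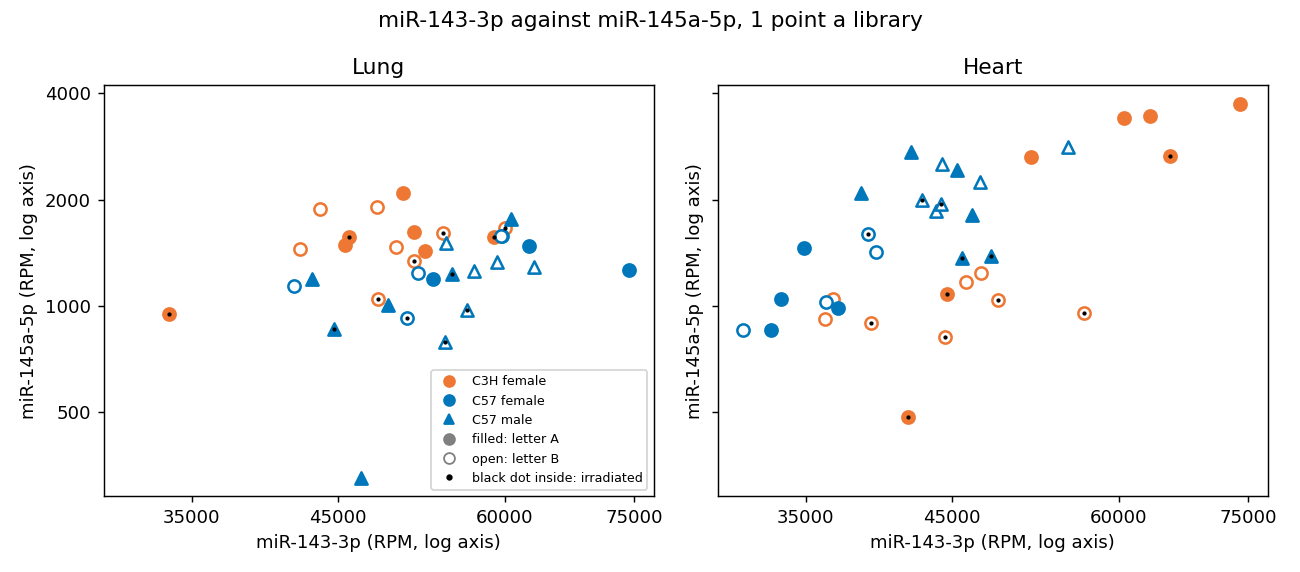
miR-145a-5p against miR-143-3p (RPM, both axes logarithmic) with 1 point a library in lung and heart, C3H in orange, C57 in blue, females as circles, males as triangles, letter A filled, letter B open and irradiated libraries with a black dot. In heart the letter A C3H shams sit at the top right, from 2636 to 3744 RPM of miR-145a-5p, and in lung 1 C57 sham male lies far below the rest at 325 RPM.

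The miRNAs whose levels followed the guide strands most closely over the 20 groups, among 398 compared with the members of the cluster left out, were named from group means of log2(RPM + 1). For miR-143-3p these were miR-574-3p (r = 0.996), miR-126a-5p (0.992), miR-126a-3p (0.990), miR-152-3p (0.987) and miR-27b-3p (0.984). For miR-145a-5p they were miR-126a-5p (0.993), miR-126a-3p (0.986), miR-199a-3p (0.985), miR-199b-3p (0.984) and miR-152-5p (0.984). miR-126a is the characteristic miRNA of endothelium and miR-199a of fibroblasts and other mesenchymal cells. These coefficients describe a shared order of tissues, as the points share libraries and the contrast of solid organ against blood.

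The mature sequences of 4 of these neighbours are shown with the seed, bases 2 to 8, in capitals (RefSeq, GRCm38.p6, where 7 of the 8 names looked for were matched). They show that the first 3 differ in their seeds, while the last pair cannot be counted apart.
mmu-miR-574-3p: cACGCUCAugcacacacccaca
mmu-miR-126a-3p: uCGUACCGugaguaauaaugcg
mmu-miR-199a-3p: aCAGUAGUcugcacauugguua
mmu-miR-199b-3p: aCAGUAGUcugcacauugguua
The last 2 are identical, so their reads cannot be assigned to one locus, and their sham means of 4357 and 4356 RPM in lung are shared values.

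Within lung, neighbours were again sought outside the cluster, over deviations from group means in 35 libraries and among 346 miRNAs. miR-143-3p went most closely with miR-34c-5p (r = 0.80), a miRNA of ciliated airway cells, and then with miR-3102-3p, miR-192-5p, miR-101c and miR-27a-3p (0.75 to 0.80). Its own passenger miR-143-5p had r = 0.80 with it. miR-145a-5p went with miR-23a-3p (0.80), miR-872-3p, miR-326-3p, miR-574-3p and miR-26b-3p (0.73 to 0.80), and with its passenger at 0.68.

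In heart, where libraries clustered by sex and letter, the means of both were also subtracted, over 34 libraries and 309 miRNAs outside the cluster. miR-143-3p was then nearest to miR-140-3p (r = 0.76), miR-137-3p (0.74), miR-140-5p (0.66), miR-341-3p (0.63) and miR-497a-5p (0.61). miR-145a-5p was nearest to miR-338-3p (0.85), miR-218-5p (0.83), miR-151-5p (0.79), let-7i-3p (0.78) and miR-208a-3p (0.77), the last encoded in a cardiac myosin gene. The coefficient of 0.68 between the guide strands lay below the highest 2 of the former and all 5 of the latter.

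Other miRNAs with a known part in smooth muscle phenotype moved in both directions. The 10 listed include miR-1a-3p and miR-133a-3p, which are also in the cardiac list. Of the 10, 3 rose and 3 fell in C3H lung, where 33.4% of all miRNAs passed (median −0.13 against −0.08 over all). Of the 3 that fell, 2 are these cardiac miRNAs (−0.60 and −0.87). In C57 lung 1 rose and 1 fell, where 16.6% passed (median 0.00 against −0.05), and 2 rose and 2 fell without both shams high in miR-21a-5p. One of these 2 that rose is miR-21a-5p itself, which chose the shams left out. In C3H heart 4 rose and 1 fell, where 16.7% passed (median 0.33 against −0.03), and 3 rose and 1 fell without either the library poor in cardiac miRNAs or the sham high in leukocyte miRNAs. In C57 heart 1 rose, where 3.53% passed (median 0.12 against 0.00). miR-221-3p rose by 0.98 ± 0.16 in C3H lung (adjusted p = 1.8e-05, limma) and 0.50 ± 0.16 in C57 lung (adjusted p = 0.0327). miR-222-3p of the same list lay the other way and did not pass, at −0.29 ± 0.12 in C3H lung (adjusted p = 0.0566) and −0.20 ± 0.12 in C57 lung (adjusted p = 0.24). In heart, miR-21a-5p rose by 1.33 ± 0.19 in C3H (adjusted p = 1.7e-06) and by 1.08 ± 0.19 in C57 (adjusted p = 0.000201). In lung it passed in C3H (adjusted p = 0.00509), while its C57 value of 0.85 ± 0.40 did not (adjusted p = 0.136) with the shams highest in it included, and it passed without them, a gain that the choice of these shams fixes. miR-26a-5p fell by 0.76 ± 0.23 in C3H lung (adjusted p = 0.00992) and miR-10a-5p by 0.88 ± 0.22 in C57 lung (adjusted p = 0.00422).

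Markers of other cells moved beside the cluster in some contrasts. In C3H lung, where 33.4% of all miRNAs passed, all 4 cardiac miRNAs fell (median −1.15), 2 of 6 fibroblast miRNAs rose (median 0.17), namely the identical miR-199a-3p (0.61, adjusted p = 3.1e-05, limma) and miR-199b-3p, and 1 of 2 endothelial, miR-126a-5p, fell (−0.73, adjusted p = 0.0085), as did 1 of 5 epithelial miRNAs, while 1 of 5 ciliated miRNAs rose. miR-126a-3p ranked first in all 15 C3H lung and all 35 heart libraries, so that quantile normalisation sets its change there to 0 and it could not pass. In RPM the endothelial sum was 331196 ± 38017 after irradiation and 413846 ± 23067 in C3H shams, with ranges of 297017 to 390147 and 380361 to 444378 RPM. In C57 lung it was 331617 ± 27470 and 372073 ± 62647 RPM. In heart it lay the other way, at 367259 ± 31904 against 327572 ± 20715 RPM in C3H and 360031 ± 36192 against 332422 ± 24893 RPM in C57 (irradiated against sham). Beside the share of all miRNAs, counts of 1 or 2 members in the other lists are no result. In C57 lung (16.6% of all), 1 cardiac miRNA fell and 1 ciliated and 1 neuronal miRNA rose. Without both shams high in miR-21a-5p, 4 of 5 leukocyte miRNAs also rose and 1 ciliated miRNA fell, while 98 of 348 miRNAs passed. In C3H heart (16.7% of all), 4 of 4 tested ciliated-cell miRNAs rose (median 2.32), and 2 of 6 fibroblast, 2 of 4 erythrocyte, 1 of 5 leukocyte and 1 of 4 cardiac miRNAs fell. Without the library poor in cardiac miRNAs, all 4 ciliated miRNAs still rose, 1 erythrocyte, 1 leukocyte and 1 cardiac miRNA fell and no fibroblast miRNA passed, while 40 of 312 miRNAs passed. Without the sham high in leukocyte miRNAs, all 4 ciliated miRNAs again rose and 1 each of the erythrocyte, leukocyte, cardiac and fibroblast lists fell, while 44 of 310 miRNAs passed. In C57 heart (3.53% of all), 2 of 4 ciliated miRNAs rose and 1 of 5 leukocyte miRNAs fell. With all libraries, no other member of these lists that could be tested passed for irradiation in lung or heart, and none did in brain, WBC or RBC. The summed levels of the ciliated list were 28.8 to 724 RPM in heart against 2960 to 12705 RPM in lung.

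The summed lists were also set against the guide strands across libraries, as 36 relations in log2 RPM, with the permutation p-values adjusted over them. In lung, after subtraction of group means (n = 35), miR-143-3p varied with the ciliated list (r = 0.78, rho = 0.79, permutation adjusted p = 0.00036 for each, the smallest these permutations can give) and the epithelial list (r = 0.61, rho = 0.66, permutation adjusted p = 0.0054 and 0.00126). miR-145a-5p varied with the fibroblast list (r = 0.60, rho = 0.61, permutation adjusted p = 0.0018 and 0.00144) and the ciliated list (r = 0.55, rho = 0.50, permutation adjusted p = 0.0054 and 0.0329). Without the 2 libraries farthest in the list these 4 coefficients were 0.72, 0.61, 0.62 and 0.53, and without both shams high in miR-21a-5p they were 0.74, 0.66, 0.55 and 0.49. The coefficient of the guide strands with each other was 0.47, and 0.45 with the means of sex and letter also subtracted (permutation adjusted p = 0.0567 for r). That subtraction was not made for the lung relations with the lists, so differences by sex and letter remain in them. They are therefore not on one scale with the heart relations below. No other list in lung passed by r, and miR-143-3p with the fibroblast list passed by rho alone (r = 0.42, permutation adjusted p = 0.131; rho = 0.49, permutation adjusted p = 0.043). Other coefficients turned in sign without both shams high in miR-21a-5p, such as that of miR-145a-5p with the endothelial list (0.21 and then −0.58), that of miR-143-3p with it (0.13 and −0.38) and that of miR-145a-5p with the phenotype list (−0.47 and 0.27).

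In heart, with the means of sex and letter also subtracted (n = 34), none of the 18 relations passed. miR-145a-5p had r = 0.77 with the cardiac list (rho = 0.11, permutation adjusted p = 0.312 and 0.89), which became 0.06 without the 2 farthest libraries and 0.42 without the library poor in cardiac miRNAs. With the leukocyte list it had r = 0.45 (rho = 0.37, permutation adjusted p = 0.312 and 0.324). All these sums are shares of the same libraries. What part other cells have in the values of the cluster was not tested beyond these relations.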

How the data were processed

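Small RNA was sequenced by the authors from lung, heart, brain, WBC and RBC with the QIAseq miRNA Library Kit on a NextSeq instrument, and trimmed and aligned in BaseSpace against mm10. Runs with few miRNA reads were rejected. Use of molecular identifiers and the treatment of reads with several matches are not given in the sources used here. The deposited values are raw read counts per mature miRNA, 1 table a tissue, not normalised. All columns were matched to samples by their labels. Libraries of a group differed by far more than sampling noise, so none was counted as a duplicate.

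RPM was computed as count per 1000000 miRNA reads. Following the study, log2 values were quantile-normalised and fitted per tissue with limma 3.58.1 (voom, 4 groups of strain and treatment; 6 with sex for the sham contrasts), after a filter of at least 10 counts in enough libraries and 15 in total (filterByExpr). Tissues and lung against heart were compared in joint fits. Values ± are SE for fits. P-values were adjusted over all miRNAs tested (Benjamini-Hochberg), and a change passed under 0.05. The study also set a cutoff on fold change, which was not applied here. No change of a member after irradiation that passed in the main fit reached that cutoff. Ratios used counts plus 0.5. Permutation tests were exact, or used 100000 draws. Alternatives were edgeR 4.0.16, DESeq2 1.42.0, other scalings and filters, covariates, subsets and left-out libraries (R 4.3.3, scipy 1.17.1). Scripts were checked on simulated counts.

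The same animals gave all tissues, so joint fits were repeated with the animal as a replicate block (consensus correlation 0.0267 for sham tissues and 0.057 for lung with heart). Within a tissue nothing pairs the groups. Since the labels do not name further culture or extraction replicates, p-values measure only the spread between these samples.

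The rule was to name the 4 members in every comparison, singly or by their range. The list members were named by counts and medians with a few examples each, and the 5 nearest miRNAs by Pearson r, for miRNAs with at least 10 RPM in 1 group. The rule for the members uses names alone, but it and the lists were chosen with earlier results of these data known. The splits by letter of the strain and sex contrasts, the runs without lung C57 sham replicates 1 and 4 or heart C3H irradiated or sham replicate 3 where letters, lists, correlations or organs are compared, the removal of sex and letter means, and the relations with the lists in heart on that scale, were chosen after seeing the data.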

Additional observations from a re-analysis of the deposited data

Results flagged for a closer look

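The distance of 1 library from the rest was tested for 3 members in groups of 4 to 10 libraries. In 7 of 39 such tests it passed the critical value, where chance gives about 1 in 20. The tests share libraries, so they are not independent. miR-145a-5p stood high in heart C3H irradiated replicate 1, with 2652 RPM against 483 to 1079 RPM in the other 6. It stood high in brain C3H sham replicate 5, with 276 RPM against 87.6 to 169 RPM, and the same library held 72.2 RPM of miR-143-5p against 25.4 to 38.6 RPM. It stood low in brain C3H irradiated replicate 2, with 85.8 RPM against 116 to 134 RPM. In RBC C3H sham replicate 3 it reached 4.70 RPM, from 12 reads, against 0 to 2.04 RPM. miR-143-5p stood low in lung C57 irradiated replicate 1, with 229 RPM against 343 to 358 RPM. miR-143-3p stood high in RBC C57 irradiated replicate 5, with 23.2 RPM against 7.58 to 11.7 RPM.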

How the results depend on the processing

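Over 1337 alternative values, 1215 kept their side of the threshold, or a count within 1.5 times. Among the others, 52 lost a call, 28 gained one, 6 turned in sign with a call on one side and 36 counts of members moved. The 1215 include 74 values that turned in sign without a call on either side. The cause of these was not tested. The animal as a replicate block changed none of the 28 calls it was applied to. Values below are log2 differences from limma unless another tool is named.

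miR-145a-5p in C57 lung no longer passed with TMM (−0.49, adjusted p = 0.0556), library size alone (−0.36, 0.237), a filter of 1 count (−0.53, 0.101), sex as a covariate (−0.48, 0.0798), males alone (−0.35, 0.634), C57 fitted alone (−0.53, 0.117), letter A alone (−0.22, 0.807), or an exact permutation test of log2 RPM (−0.36, adjusted 0.640). Leaving out 1 library gave −0.64 (sham replicate 4) to −0.48, and without irradiated replicate 1, 3, 4 or 5 it did not pass (adjusted p from 0.0872 to 0.116).

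miR-145a-5p in C3H lung passed with edgeR (−0.57, adjusted p = 0.0102), DESeq2 (−0.56, 0.00525), TMM (−0.57, 0.0147), a filter of 10 counts in every library (−0.47, 0.0464), letter (−0.47, 0.0476) or sex (−0.46, 0.0479) as a covariate, C3H alone (−0.48, 0.00874) and letter B alone (−0.50, 0.015). Leaving out 1 library gave −0.54 to −0.38, passing without irradiated replicate 2 or 6.

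miR-145a-5p in C3H heart did not pass with library size alone (−0.93, adjusted p = 0.0576), a filter of 1 count (−0.90, 0.0526), C3H alone (−0.91, 0.067), letter B alone (−0.38, 0.656), letter A without the library poor in cardiac miRNAs (−0.82, 0.214), without the sham high in leukocyte miRNAs over both letters (−0.83, 0.0531) or in letter A (−1.39, 0.056), or the exact permutation test (−0.92, adjusted 0.567). Leaving out 1 library gave −1.08 to −0.74, not passing without irradiated replicate 3.

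miR-143-3p passed in C3H heart within letter A (−0.72; not without the library poor in cardiac miRNAs, −0.43), in the lung-heart comparison of C3H with TMM (−0.45, adjusted p = 0.0382), and in C57 lung without sham replicate 4 (−0.38) or without both shams high in miR-21a-5p (−0.39); leaving out 1 library there gave −0.41 to −0.35. Its sex difference turned with TMM in heart (0.010, adjusted p = 0.957) and within letter B in lung (−0.51, 0.0242).

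Between tissues, lung minus heart gave −0.71 with TMM, −0.85 with quantile normalisation and −0.76 with edgeR for miR-145a-5p, all passing, and −0.40, −0.98 and −0.47 for miR-143-5p, reversing its sign. Quantile normalisation turned miR-145a-3p for brain minus WBC (−0.53, adjusted p = 8.5e-05) and ended the call of miR-145a-5p for WBC minus RBC (0.63, 0.182). TMM and quantile normalisation called miR-145a-3p there (−0.48 and −0.38), although neither fraction had a read of it.

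The correlation of the guide strands lost its call in lung with TMM factors (0.38), sham libraries alone (0.41) and means of sex and letter subtracted (0.45, adjusted p = 0.0567), in brain with TMM factors (0.16), and in WBC with sham libraries alone (0.67, 0.0558) and means of sex and letter subtracted (0.63, 0.0649).

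Depth limited miR-145a-3p outside lung and all members but miR-143-3p in blood.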
